A study of Arabidopsis thaliana with 3 samples.

Results

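Of the FHY3 peaks on the chromosome arms of Arabidopsis thaliana, 450 were called in a single ChIP replicate, out of 2838 peaks in both lists. They were 196 of the 802 arm peaks of replicate 1, or 24.4% (95% Wilson interval 21.6 to 27.5%), and 254 of the 851 arm peaks of replicate 2, or 29.8% (26.9 to 33.0%). A peak belonged here when no peak of the other list overlapped it by even 1 bp and its midpoint lay on a chromosome arm. The arms exclude a window around each centromere, from 13 to 17 Mb on chromosome 1, 2 to 6 Mb on chromosome 2, 11.5 to 15.5 Mb on chromosome 3, 1.5 to 5.5 Mb on chromosome 4 and 10 to 14 Mb on chromosome 5. Such peaks are called unshared below, and the arm peaks with a partner in the other list, 606 in replicate 1 and 597 in replicate 2, are called shared.

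The plants were fhy3-4 mutants with a 35S:3FLAG-FHY3-3HA transgene, so a viral promoter active in most tissues drove the tagged protein in every sample. They grew with 16 h of light and 8 h of dark, and inflorescences with flowers of stage 8 or younger were taken. An anti-FLAG antibody was used on 2 ChIP samples, which the submitters describe as biological replicates, and 1 further sample was input DNA without antibody. Peaks were called for each ChIP sample on its own, and values of the input were not used here.

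FHY3 is a DNA-binding protein that descends from a transposase. With its partner FAR1 it acts downstream of phytochrome A, the photoreceptor for far-red light, and it also regulates clock, chloroplast and flower genes. A ChIP-seq peak is a stretch where precipitated fragments pile up above the background. A list holds only the stretches that passed the caller's threshold, so a peak missing from a list does not show that FHY3 was absent there. Read counts per peak and the depth of the libraries are unknown.

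Unshared arm peaks scored low in both lists, with a tail of high-scoring peaks in replicate 2. The authors' score, whose scale is not stated, had a median of 27.99 in unshared peaks of replicate 1 (quartiles 24.6 and 32.0, highest 92.5) and 111 in its shared arm peaks (quartiles 49.8 and 257). In replicate 2 the medians were 36.1 in unshared peaks (quartiles 27.9 and 51.8, highest 475) and 209 in shared peaks (quartiles 90.0 and 496). These scores are a description, with no test. Nothing in the files puts the scores of the lists on a common scale, so each is read within its own list.

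**Figure D1:**
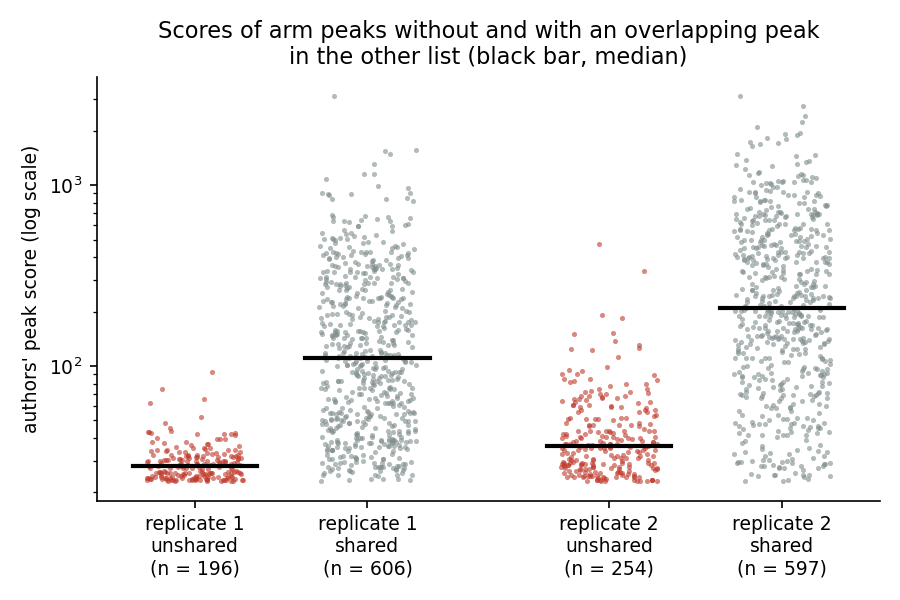
Authors' peak score (log scale) of each arm peak, by list, for unshared peaks (red) and shared peaks (grey), with the median as a black bar. Each list is read on its own scores, which have no known common scale. No unshared peak of replicate 1 scored above 92.5, and 12 of replicate 2 scored at least 100.

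Ranked by score among all arm peaks of its list, the best unshared peak stood at rank 339 of 802 in replicate 1 and at rank 158 of 851 in replicate 2. The upper part of the ranking, down to its midpoint, held 3 unshared peaks of replicate 1 (1.53% of its 196) and 11 of replicate 2 (4.33% of its 254). Of arm peaks scoring under 30, 72.4% were unshared in replicate 1 (123 of 170) and 72.5% in replicate 2 (87 of 120). Between 50 and 100, 5 of 133 arm peaks were unshared in replicate 1 (3.76%, interval 1.62 to 8.50%) and 59 of 143 in replicate 2 (41.3%, interval 33.5 to 49.5%). From 100 to 200, replicate 1 had 0 unshared among 131 peaks, which allows up to 2.29% by the rule of 3 peaks over the total (Wilson upper bound 2.85%), and replicate 2 had 10 among 133 (7.52%). At 200 or more, replicate 1 had 0 among 192, which allows up to 1.56% by that rule (Wilson upper bound 1.96%), and replicate 2 had 2 among 311. These limits and intervals cover counting error of peaks only.

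**Figure D2:**
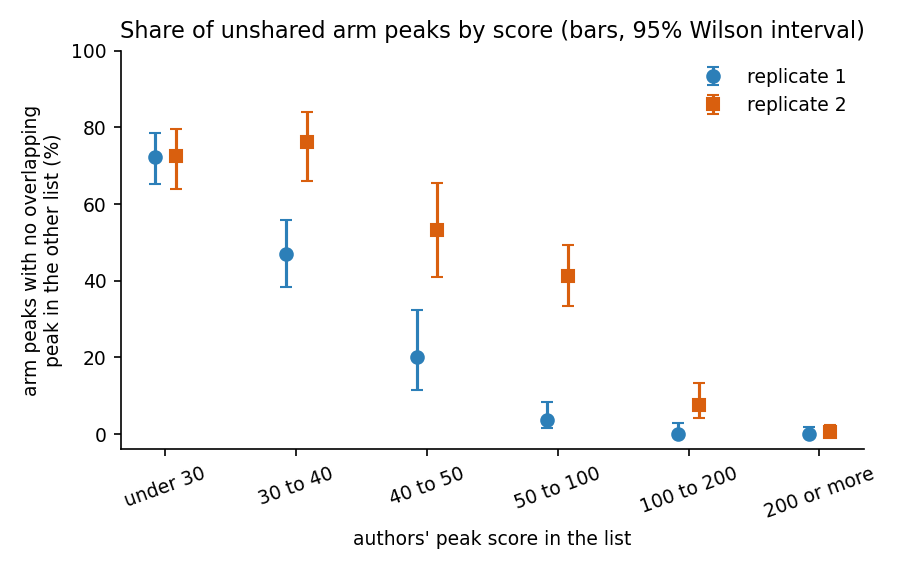
Share of arm peaks with no overlapping peak in the other list (percent, with 95% Wilson intervals) by the score in the peak's own list, for replicate 1 (blue circles) and replicate 2 (orange squares). The shares are 72.4% and 72.5% under 30, and 3.76% and 41.3% between 50 and 100, each on its own list's score.

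Unshared peaks were also narrower. Their median width was 594 bp in replicate 1, against 959 bp for its shared arm peaks, and 715.5 bp in replicate 2, against 1105 bp. In all they covered 151 kb of replicate 1 and 204 kb of replicate 2. A few were broad. The widest of replicate 1 ran over 5714 bp, with a score of 43.5. It covered 71.7% of CYCA2;1, an A-type cyclin gene, with its midpoint outside the gene. Another of 3837 bp lay inside AGO1, which encodes the main slicer of the microRNA pathway, with a score of 30.1; both were singled out after their widths were seen.

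Here and below, peaks are placed relative to genes by their midpoint, unless coverage of a gene is given. The 10 best unshared peaks of replicate 2 that had a protein-coding gene within 1000 bp scored 123 to 475. The top one, with a score of 475, covered 3324 bp on chromosome 5 from 2951716 to 2955039. It spans the neighbouring genes AT5G09490 and AT5G09500 whole, and the nearest peak of replicate 1 was 99.2 kb away. The next, with a score of 335, lay inside AFB4, which encodes an auxin receptor F-box protein, on chromosome 4 from 12613273 to 12614512, with the nearest replicate 1 peak at 26.2 kb. CDT1A, a gene of DNA replication licensing, held a peak of 2003 bp on chromosome 2 from 13330713 to 13332715, with a score of 190. The nearest replicate 1 peak was 240.7 kb from its edge.

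AT5G56940 had a replicate 2 peak of score 185 whose nearest replicate 1 peak was 401 kb away, the longest distance of any unshared peak of that list. The peak at AT3G13437, listed under the synonym Enhancer of vascular Wilt Resistance 1, scored 152 and covered the whole gene. TCP3, a TCP transcription factor gene of leaf development, had a peak of score 126 inside it, 294 kb from replicate 1. SULTR3;4, named for a sulfate transporter, had one of score 124. The rest of the 10 best with a gene were at AT5G05400 (score 138), AT1G52780 (131) and AT5G50270 (123). A peak of score 150 at rank 374 was passed over on the way, since its nearest protein-coding gene, AT1G66480, was 2122 bp from its midpoint.

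The best unshared peaks of replicate 1 began further down the ranking of their own list, at rank 339 of 802. The first, with a score of 92.5, lay on chromosome 5 from 17421564 to 17422510. Its midpoint was 55.0 bp from TOPP6, which encodes a type one protein phosphatase, and the peak reaches into that gene. The second, with a score of 74.6, lay on chromosome 3 from 8807613 to 8808613. Its midpoint was 653 bp from AMT1;3, an ammonium transporter gene. AT2G40420 and AT2G26270 followed with scores of 62.4 and 52.4, both inside the gene. The rest of the 10 best with a gene were at CYCA2;1 (43.5), AT4G00700 (43.3), STT3B (43.3), which encodes a subunit of the N-glycosylation enzyme oligosaccharyltransferase, AT5G41908 (42.7), AT1G24610 (42.5) and the carboxylesterase gene CXE20 (42.3). Peaks without a protein-coding gene within 1000 bp of the midpoint were passed over on the way. The best of them, with a score of 65.9 at rank 401, had its midpoint 2306.5 bp from AT4G18650. Another had its midpoint 3192 bp from LBD18, on chromosome 2 from 18722114 to 18725727, with a score of 48.7 at rank 465. Both were singled out after their values were seen.

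Few unshared peaks were near misses of a peak in the other list. The distance from edge to edge to the nearest peak of the other list had a median of 36.8 kb for replicate 1 (quartiles 7.36 and 89.2 kb) and 37.0 kb for replicate 2 (quartiles 7.95 and 89.1 kb). It was within 1 kb for 14 peaks of replicate 1 (7.14%) and 14 of replicate 2 (5.51%), and within 10 kb for 57 (29.1%) and 76 (29.9%). Beyond 100 kb lay 39 peaks of replicate 1 (19.9%) and 47 of replicate 2 (18.5%). For shared arm peaks, the nearest peak of the other list that did not overlap them was at a median of 29.6 kb in replicate 1 and 33.0 kb in replicate 2. It was within 1 kb for 5.28% of them in replicate 1 and 4.52% in replicate 2. The shares within 10 kb were 25.6% and 22.9%, and those beyond 100 kb 17.8% and 20.4%. Distance 0 chose the members, so these distances were not tested.

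**Figure D3:**
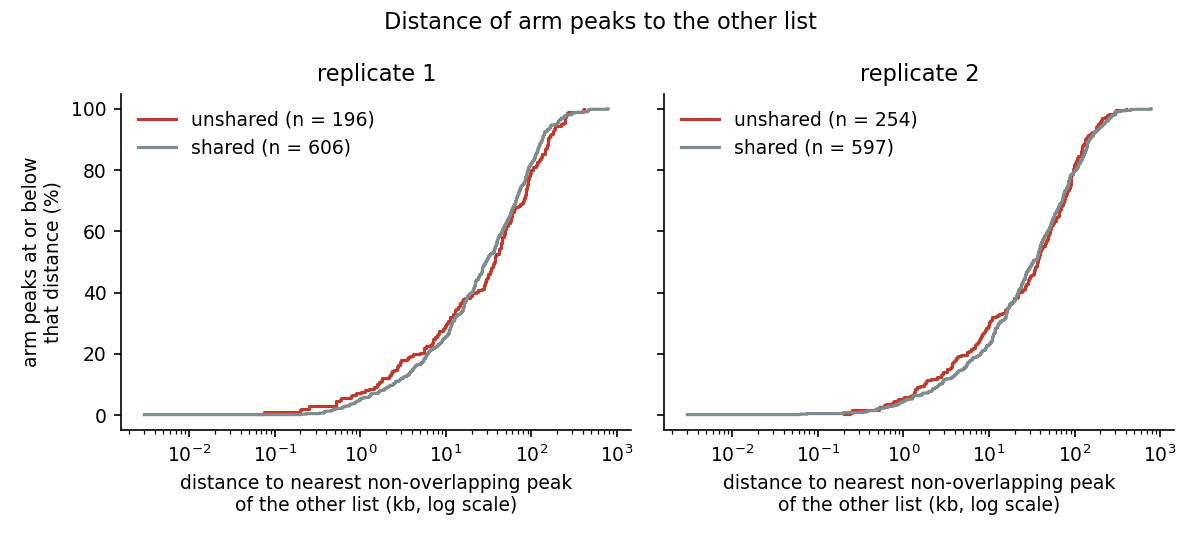
Cumulative share of arm peaks (percent) by distance to the nearest non-overlapping peak of the other list (kb, log scale), for unshared (red) and shared (grey) peaks of each list. The curves run close together, with unshared medians of 36.8 and 37.0 kb and shared medians of 29.6 and 33.0 kb.

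The peaks next to the threshold show how fine it is. The closest unshared peak of replicate 1 lay on chromosome 4 from 13969379 to 13970391, with a score of 30.4. Its midpoint was 360 bp from MYB41, a MYB transcription factor gene that its edge reaches into. A replicate 2 peak of score 46.1 followed after a gap of 62 bp. Others lay 75 bp and 195 bp from replicate 2, both beyond 1000 bp of any protein-coding gene. Further ones lay at 202 bp, inside AT2G33010, and 249 bp, inside AT2G30720. In replicate 2 the closest was 205 bp from a replicate 1 peak and lay inside AT3G06270. It was followed by peaks at 235 bp and 253 bp without a protein-coding gene within 1000 bp, 249 bp inside AT2G30710 and 518 bp inside DMS11, a gene of transcriptional silencing.

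On the other side of the threshold, the smallest overlap was 41 bp. It joined a replicate 2 peak inside THO2, a gene of the THO complex for messenger RNA export, with a score of 33.4, to a replicate 1 peak of score 39.2. The next was 82 bp, at DGK6, with scores of 38.02 in replicate 1 and 29.2 in replicate 2. At the edge of the excluded windows, the nearest unshared arm peak lay 9.39 kb outside in replicate 1 and 24.2 kb outside in replicate 2.

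In 38 cases an unshared peak of each list was the other's nearest peak. The distance between them had a median of 9.19 kb and was within 1 kb for 6 pairs and within 10 kb for 19. The nearest peak of the other list was itself a shared peak for 121 of the 196 unshared peaks of replicate 1 (61.7%) and for 179 of the 254 of replicate 2 (70.5%). Most arm peaks of the other list were shared in any case, 597 of 851 in replicate 2 and 606 of 802 in replicate 1. Within their own list, 19 unshared peaks of replicate 1 (9.69%) and 20 of replicate 2 (7.87%) had another peak within 1 kb, which was shared for 7 and 8 of them. The same held for 55 of 606 shared arm peaks of replicate 1 and 39 of 597 of replicate 2.

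Some unshared peaks formed runs. There were 12 stretches with 3 or more unshared peaks of either list at most 5 kb apart, with 43 peaks in all. Of these stretches, 7 mixed both lists, 2 held replicate 1 alone and 3 replicate 2 alone. The runs were looked for after the data were seen.

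The runs of replicate 1 alone lay at or near genes on chromosome 1. One covered 5.34 kb at AT1G24600, AT1G24610 and AT1G24620, and the other 8.12 kb at ARF21 and AT1G34420. The runs of replicate 2 alone were more compact and also lay at genes. The first lay on chromosome 1 from 29595747 to 29599194, with 4 peaks across At1g78690p. Their scores were 33.4, 37.95, 35.7 and 94.5, and 3 of them covered 91.6% of the gene's span. The second lay at SPX4, a sensor gene of phosphate signalling, and ran from 4979429 to 4982205 on chromosome 5. Its peaks scored 26.6, 33.8 and 59.0, and 2 of them covered 74.8% of the gene. The third lay at ATK3, which encodes a kinesin, between 22211913 and 22215057 of chromosome 5. Its peaks scored 23.5, 84.5 and 35.8.

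In the 7 mixed runs, the best replicate 1 peak was the one near AMT1;3 (score 74.6) and the best replicate 2 peak lay at DMS11 (79.5). At ALDH2B7, an aldehyde dehydrogenase gene, and AT1G23790, 2 peaks of replicate 1 (scores 39.5 and 29.5) were followed by 2 of replicate 2 (26.7 and 35.3). All 4 lay between 8409184 and 8415795 on chromosome 1, and no shared peak was in between. Another mixed run, from 5755193 to 5761899 on chromosome 4, reached FBW2, whose F-box protein acts on AGO1. It had replicate 2 peaks of scores 37.1 and 26.9 and a replicate 1 peak of score 29.7. The run with most peaks, 6 over 18.8 kb on chromosome 5, began 0.0215 Mb from the excluded window. Within it also lay 1 shared peak of each list. The FBW2 run began 0.256 Mb from a window and the ARF21 run of replicate 1 alone 0.423 Mb. Further mixed runs began at 0.0792 Mb on chromosome 3 and 0.186 Mb on chromosome 4. All other runs began 2.69 Mb or more from any window. No count of such runs among shared peaks is given here.

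Positions relative to genes rest on gene coordinates of TAIR10.1. The sources used here name no build for the lists, so these statements assume a common frame. Strand was not used. In replicate 1, 52.0% of unshared midpoints lay inside a protein-coding gene (102 of 196, interval 45.1 to 58.9%), against 61.4% of shared ones (372 of 606, interval 57.4 to 65.2%). This difference passed the threshold (Fisher's exact test, two-sided, adjusted over 6 tests, p = 0.0479), and it no longer did under any of 8 other settings (adjusted p from 0.0564 to 0.381). In replicate 2 the shares were 59.8% of unshared midpoints (152 of 254) and 60.6% of shared ones (362 of 597), with an adjusted p of 0.878 by Fisher's exact test. Between the lists, the unshared shares of 52.0% and 59.8% did not differ past the threshold (Fisher's exact test, adjusted over 4 tests chosen after the data were seen, p = 0.208).

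Outside genes but within 1000 bp of one lay 25.5% of unshared midpoints of replicate 1, against 23.1% of shared ones, and 21.7% of unshared midpoints of replicate 2, against 23.8% (Fisher's exact test, adjusted p = 0.642 for each). Farther away lay 22.4% of unshared peaks of replicate 1, against 15.5% of shared ones, and 18.5% of replicate 2, against 15.6%. Of the far peaks in replicate 1, 8 of 44 unshared and 18 of 94 shared ones had their midpoint inside an annotated gene of another type. In replicate 2 these were 12 of 47 unshared and 16 of 93 shared ones. Most of these genes were pseudogenes, among unshared peaks all 8 in replicate 1 and, in replicate 2, 9 besides 1 transcribed pseudogene. Unshared peaks that touched no protein-coding gene at all made up 36.7% in replicate 1 and 27.6% in replicate 2, against 24.3% and 22.6% of shared peaks, which are wider. These tests count each peak as independent, although neighbouring peaks may belong to the same enriched stretch.

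**Figure D4:**
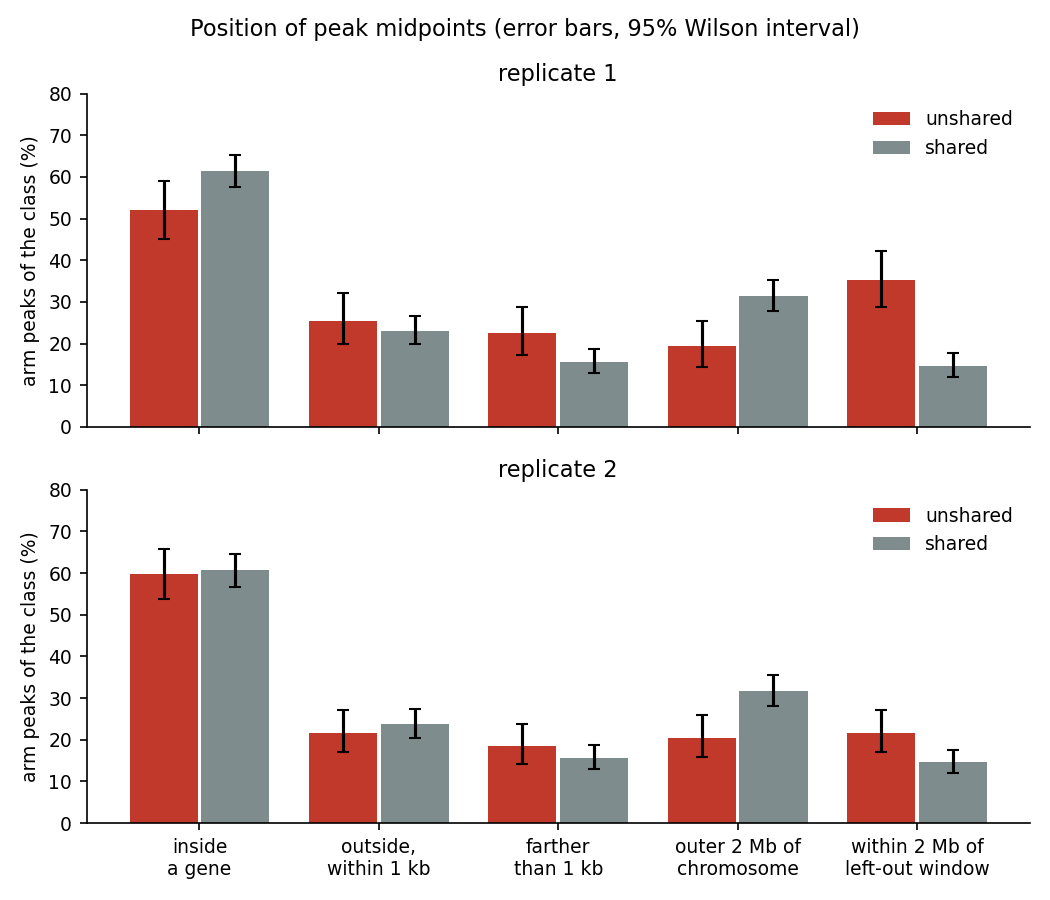
Share of unshared (red, left) and shared (grey, right) arm peaks in each class of midpoint position (percent, with 95% Wilson intervals), for replicate 1 above and replicate 2 below. Unshared peaks are fewer in the outer 2 Mb of the chromosomes (19.4% and 20.5%, against 31.4% and 31.7% of shared peaks). The class of the outer 2 Mb and the class within 2 Mb of an excluded window share peaks on chromosomes 2 and 4.

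Along the arms, unshared peaks lay farther from the chromosome ends than shared peaks in both lists. The outer 2 Mb held 19.4% of unshared peaks of replicate 1 (38 of 196, interval 14.5 to 25.5%) and 31.4% of its shared peaks (190 of 606, interval 27.8 to 35.2%). In replicate 2 these were 20.5% (52 of 254, interval 16.0 to 25.9%) and 31.7% (189 of 597, interval 28.1 to 35.5%), and the adjusted p was 0.00313 in each list by Fisher's exact test. The shared peaks of either list are those that overlap the other list. In all tests of unshared against shared peaks, the results of the lists are therefore not independent of each other. Among peaks scoring under 50 only, the shares were 19.9% of unshared and 23.2% of shared peaks in replicate 1 and 22.95% and 27.2% in replicate 2, and the difference no longer passed the threshold (Fisher's exact test, adjusted p = 0.640 for each). The part of the score in the result was not tested beyond these values. Unshared peaks of replicate 1 and replicate 2 did not differ past the threshold in this share (Fisher's exact test, adjusted p = 0.813).

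Close to the excluded windows the lists differed. Within 2 Mb of a window lay 35.2% of unshared peaks of replicate 1 (69 of 196, interval 28.9 to 42.1%), against 14.7% of its shared arm peaks (89 of 606), with an adjusted p of 4.19e-09 by Fisher's exact test. In replicate 2 it was 21.7% of unshared peaks (55 of 254, interval 17.0 to 27.1%), against 14.6% of shared ones (87 of 597), with an adjusted p of 0.0156 by the same exact test. The unshared shares of replicate 1 and replicate 2 differed from each other (Fisher's exact test, adjusted p = 0.00786). At scores under 50, the difference in replicate 1 still passed, with 36.1% of unshared and 19.4% of shared peaks (Fisher's exact test, adjusted p = 0.00153). Replicate 2 then had 24.0% of unshared and 34.6% of shared peaks, the opposite direction (Fisher's exact test, adjusted p = 0.0988). Without chromosome 3 or without chromosome 4, the replicate 2 shares were 21.2% and 18.6% of unshared peaks, against 15.7% and 14.1% of shared ones (Fisher's exact test, adjusted p = 0.0985 and 0.147). The tests near the excluded windows were chosen after the data were seen.

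**Figure D5:**
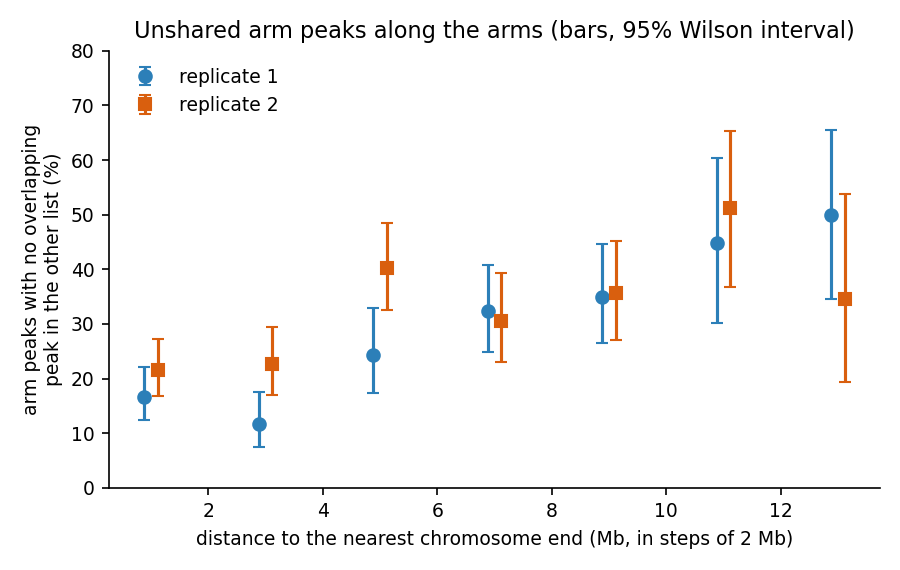
Share of arm peaks that were unshared (percent, with 95% Wilson intervals) by distance to the nearest chromosome end in steps of 2 Mb, for replicate 1 (blue circles) and replicate 2 (orange squares). In the outermost step the shares are 16.7% in replicate 1 and 21.6% in replicate 2. From 10 to 12 Mb they are 44.7% and 51.2%, and from 12 to 14 Mb 50% and 34.6%. The lowest share of replicate 1 is from 2 to 4 Mb (11.6%). In replicate 2 the share is also lower from 6 to 8 Mb (30.6%) than from 4 to 6 Mb (40.3%).

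The excluded windows themselves had higher unshared shares, 53.0% of 673 peaks in replicate 1 and 39.0% of 503 in replicate 2, given here as a description because overlap defines both. By chromosome, the unshared share of arm peaks in replicate 1 ran from 20.4% on chromosome 3 to 26.8% on chromosome 1. In replicate 2 it ran from 25.8% on chromosome 3 to 35.8% on chromosome 5. The intervals of the 5 chromosomes overlap within each list. Per Mb of arm there were 1.71 to 2.48 unshared peaks in replicate 1 and 2.26 to 2.96 in replicate 2.

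The unshared peaks of replicate 1 were next to 186 of 26188 protein-coding arm genes (0.71%) and those of replicate 2 next to 278 (1.06%), counting genes that hold the midpoint or end within 1000 bp of it. In all 457 genes were next to an unshared peak, 15 of which were also next to a shared arm peak. The gene lists, 9 in all, name 153 genes of flower, meristem, light, clock and related functions, of which 149 lie on the arms. Of these 149, 3 were next to an unshared peak of replicate 1 (2.01%) and 2 next to one of replicate 2 (1.34%). With so few members, and lists written with earlier results known, these shares were not tested.

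PI and CAL made up the replicate 1 count of 2 among 22 floral organ identity genes on the arms. PI, a MADS-box gene of petals and stamens, held a peak inside it on chromosome 5 from 6829261 to 6829743, with a score of 28.8 at rank 658 of 802. CAL, a MADS-box gene of floral meristem identity, was 882 bp from the midpoint of another peak. That peak lay on chromosome 1 from 9104243 to 9104808, with a score of 33.6, and its midpoint is nearer to AT1G26320. The nearest replicate 2 peaks were 163 kb from the PI peak and 95.04 kb from the CAL peak. ARC5, a dynamin-like gene of chloroplast division, was the third. Its peak on chromosome 3 from 6849206 to 6849578 scored 26.2 and has its midpoint inside the neighbouring BCAT4, a gene of glucosinolate synthesis, 966 bp from ARC5.

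Replicate 2 alone had peaks at CCA1 and CUC1. CCA1, a MYB-related repressor at the core of the circadian clock, held a peak inside it on chromosome 2 from 19247445 to 19247935, with a score of 28.6 at rank 756 of 851. It was 1 of 19 clock genes on the arms and lay 27.0 kb from replicate 1. CUC1, a NAC gene of organ boundaries and 1 of 29 meristem and boundary genes, was 676 bp from the midpoint of another peak. That peak scored 27.8 and lay on chromosome 3 from 5111994 to 5112573. The midpoint of that peak lies inside AT3G15180, and a replicate 1 peak lay 3.25 kb away. CCA1 and ARC5 are also among the 13 reported FHY3 targets. None of the light signalling, FHY3/FAR1 family, flowering time, abscisic acid and housekeeping genes was next to an unshared arm peak, with 24, 13, 13, 13 and 11 members on the arms.

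Both lists had an unshared peak next to the same gene in 7 cases, and none of those genes was next to a shared arm peak. At SAG29, a sugar transporter gene that is active in ageing leaves, the replicate 1 peak (score 23.5) lay inside the gene and the replicate 2 peak (score 23.3) lay near it, 1262 bp apart. At FBW2 the peaks, with scores of 29.7 in replicate 1 and 26.9 in replicate 2, were 520 bp apart. AT2G30710 and AT2G30720 share a pair of peaks 249 bp apart, with scores of 24.6 in replicate 1 and 23.3 in replicate 2. AT3G12020 had scores of 24.5 in replicate 1 and 33.8 in replicate 2, at 1010 bp. The last, ALDH2B7 and AT1G23790, belong to the mixed run described above.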

How the data were processed

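The submitters' processing notes name CASAVA 1.8, Bowtie2 2.2.3 and MACS 1.4.2. Their settings, the caller's control and the build are not stated in what was used here. The deposited lists, without header, hold a start, an end and the authors' score per peak (lowest 23.03, highest 3100), with 1477 peaks in replicate 1 and 1361 in replicate 2. Depth is unknown.

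Coordinates are counted from 1. Peaks of the 5 nuclear chromosomes (1475 and 1354) were compared with any overlap of 1 bp. Gene names and neighbours came from a TAIR10.1 table with 27444 nuclear protein-coding genes. Chromosome ends were set at the last annotated gene. Shares of peaks were compared with Fisher's exact test (two-sided, Benjamini-Hochberg adjusted, threshold 0.05), treating peaks as independent, and the scripts were tested on simulated data. Named genes were those at the 10 best-scoring unshared peaks of each list with a gene, those at the 5 closest to the other list, and members of the gene lists next to an unshared peak; others are said to be chosen after their values were seen or belong to the smallest overlaps, to runs or to genes in both lists. The members and gene lists were chosen with earlier results of these data known. Sequences were not analysed here. Python 3.11.15 was used with scipy 1.17.1, pandas 2.3.3, numpy 2.4.6 and matplotlib 3.10.9. Alternatives changed the overlap rule, score range, arm edge, gene set, flank and distances.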

Additional observations from a re-analysis of the deposited data

How the results depend on the processing

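No paired analysis was possible because only a single group, the ChIP samples, has peak lists. Of 68 alternative values, 41 kept direction and side of the threshold, or stayed near the main value. Leaving out a chromosome, an alternative chosen after seeing the data, kept 18 of 20. The lower share of unshared peaks in the outer 2 Mb held in each list under all overlap rules and distances and was lost at scores under 50 (19.9% in replicate 1, 22.95% in replicate 2). With both lists together, where shared places count once per list, it was 20%, and 19.4 to 20.5% without a replicate. The share within 2 Mb of an excluded window in replicate 2 was 24.0% at scores under 50 (opposite direction), 21.2% without chromosome 3 and 18.6% without chromosome 4, neither past the threshold. The share of replicate 1 inside a gene lost its call with partners within 200 bp (52.8%) or 1000 bp (53.8%), a reciprocal overlap of 50% (53.1%), midpoints within 200 bp (54.6%), scores under 50 (52.4%) or at least 50 (40%, 5 peaks), all gene types (57.7%) and arms trimmed by 1 Mb (55.8%). In replicate 2 it turned above the shared share, without passing, with scores under 50 (55.7%) or at least 50 (70.4%), all gene types (65.4%) and trimmed arms (66.2%). Both lists together gave 56.4%, and 52.0 to 59.8% without a replicate, past the threshold only without replicate 2. Within 1000 bp of a gene these were 23.3%, and 21.7 to 25.5%, the last in the opposite direction. Unshared peaks numbered 5 in replicate 1 and 71 in replicate 2 at a score of at least 50, and 0 and 12 at 100. Median distances were 37.6 and 37.99 kb between midpoints, and 62.4 and 45.6 kb at a score of at least 50. With a flank of 3000 bp, 386 and 537 genes were next to unshared peaks. The cause of these changes was not tested. Unknown depth limits what a missing peak means.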
